A study of Homo sapiens with 10 samples.

Results

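The addition of wild type METTL3 to METTL3 knockout cells was examined in senescent IMR90 cells, across all genes of a table of read counts. IMR90 is an established line of human fibroblasts from fetal lung. The comparison was defined by the sample labels and used 4 of the 10 samples, 2 of wild type METTL3 knock-in and 2 of METTL3 knockout. Cells of all 4 samples had received the oncogene RAS from a retrovirus, which puts fibroblasts into a lasting arrest. The wild type knock-in samples are labelled as senescent METTL3 knockout cells with wild type METTL3 added back. The METTL3 knockout samples are labelled as senescent with METTL3 knockout alone. Per the labels' protocols, siRNA was transfected at day 4 after the retrovirus and again on the next day together with a lentivirus that carried a wild type or mutant gene, and cells were harvested 48 hours later. The titles call this treatment a knockout, and the word is kept below although the protocol describes siRNA. The protocol text names METTL14, while the titles and the column names of the table name METTL3. The knockout columns of the table carry the word vec in addition. No source used here says whether the knockout cells were given a lentivirus without a gene, and if they were not, an effect of the lentivirus and an effect of the METTL3 it carried cannot be told apart.

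The other groups, of 2 samples each, serve for context. They are the mutant METTL3 knock-in (RAS, siRNA against METTL3 and a METTL3 mutant, with the change in METTL3 not given by the sources used), the senescent control (RAS and control siRNA) and growing control cells (retrovirus without RAS and control siRNA). Separate cultures are not stated for the replicates, so p-values measure only how far these samples lie apart, which may be technical. m6A, a methyl group on adenosines inside RNA, is placed by a complex in which METTL3 does the catalysis, METTL14 holds the RNA and WTAP is a regulatory subunit. Senescent fibroblasts no longer divide and secrete cytokines, chemokines, proteases and growth factors, which are known together as the senescence-associated secretory phenotype (SASP). NF-kB is a main activator of that secretion. Fewer cells of a given kind and less RNA per cell cannot be told apart in these bulk samples.

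METTL3 was far above its natural level in the knock-in. It took 5.87% and 5.86% of all counts in the wild type knock-in samples, against 0.00246% and 0.00304% in the METTL3 knockout samples. Levels are given below as CPM, counts per 1000000 counts of the library, with METTL3 left out of the totals. On this scale METTL3 stood at 59770 and 60670 CPM in the wild type knock-in, 119900 and 155100 CPM in the mutant knock-in, 24.5 and 30.2 CPM in the knockout, and 49.5 and 59.9 CPM in the senescent control. The log2 fold change of wild type knock-in over knockout was 11.10 (SE 0.21). METTL3 RNA in the knockout was thus lowered and not absent, and the knock-in carried it far beyond the level of the senescent control.

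Total counts without METTL3 were 15337049 and 20033788 in the wild type knock-in samples, against 16334875 and 18252640 in the knockout samples. The label of a fibroblast was checked with 9 fibroblast markers, whose summed level was 8034 and 8719 CPM in the wild type knock-in and 10580 and 11050 CPM in the knockout, with 1 marker higher and 5 lower in the knock-in. Of 6 epithelial markers, KRT5, SFTPC and NKX2-1 had 0 counts in all 4 samples, EPCAM and CDH1 stayed under 1 CPM, and KRT19 fell, at 2.37 and 3.65 CPM in the wild type knock-in and 10.6 and 10.3 CPM in the knockout (log2 -1.76). The summed level of 4 neuronal markers was 17.7 and 20.3 CPM in the wild type knock-in and 38.9 and 42.0 CPM in the knockout, most of it from SYT1, which fell by 1.10, while ELAVL3 and STMN2 had 0 counts in all 4 samples. The part of these markers in the results below was not tested. Of 7 leukocyte markers, CD3E had 0 counts in all 4 samples, while the summed level was 161 and 171 CPM in the wild type knock-in and 84.0 and 81.7 CPM in the knockout, nearly all of it from CD68 at 156 and 167 CPM in the wild type knock-in, against 81.2 and 79.3 CPM in the knockout. HRAS was at 49.9 and 45.3 CPM in the wild type knock-in and 43.1 and 41.3 CPM in the knockout, a log2 difference of 0.17 (SE 0.11, edgeR adjusted p = 0.245). LMNB1, a lamin that is lost in senescence, was at 2.37 and 2.39 CPM in the wild type knock-in, against 8.65 and 7.41 CPM in the knockout, and fell by 1.75 on the log2 scale (SE 0.18). CDKN1A and CDKN2A, the genes of the arrest proteins p21 and p16, did not pass the test, with log2 differences of 0.23 (SE 0.10, edgeR adjusted p = 0.104) and 0.09 (SE 0.10, edgeR adjusted p = 0.506). Under 1 of 11 alternatives, with only the 4 samples compared in the fit, CDKN1A was called (edgeR adjusted p = 0.00748), and over all 11 the adjusted p ran up to 0.487.

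Of 16916 genes tested, 2953 were higher and 2629 were lower in wild type knock-in than in METTL3 knockout at an adjusted p under 0.05 in edgeR's quasi-likelihood test. These are 17.5% and 15.5% of the genes tested, 33.0% in all. The 2 shares are the background for every count of called list members given below. The words rose, fell, higher and lower are used of a gene below where it passed this test. A change of at least 1 on the log2 scale was seen in 1069 of the genes that rose and in 549 of those that fell. Without METTL3 knockout replicate 1 the counts were 1804 and 1628, without knockout replicate 2 they were 1701 and 1869, and without wild type knock-in replicate 1 they were 2003 and 1534. With 2 samples a group the samples of the groups did not overlap at 35.4% of genes in the direction of a rise and at 34.9% in the direction of a fall, so that separation alone is a weak mark of change here. The median log2 fold change of all genes was 0.0017. For the groups that give context, 20.1% of genes were higher and 19.7% lower in wild type knock-in than in senescent control (39.7% in all), 7.19% were higher and 8.32% lower in METTL3 knockout than in senescent control, and 5.96% were higher and 5.57% lower in wild type than in mutant knock-in (11.5% in all). Without 1 of the samples the calls between the knock-ins were as few as 30 and 90, so that levels of the mutant are given below without calls.

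**Figure D1:**
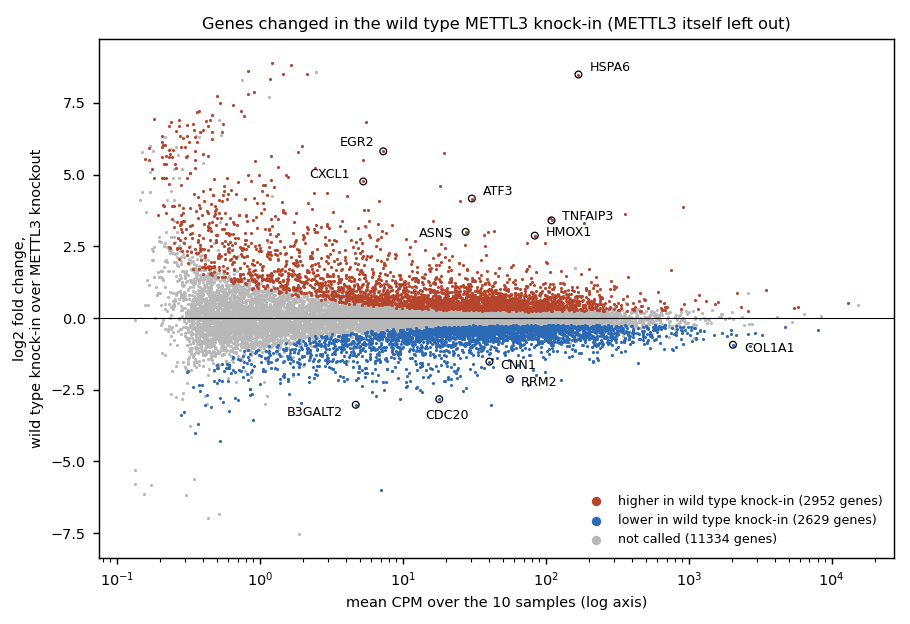
Log2 fold change of wild type knock-in over METTL3 knockout (vertical axis) against the mean level over the 10 samples (horizontal log axis, CPM), 1 point a gene, with METTL3 left out; red, blue and grey points are genes that were higher, lower or not called. The labelled genes run from HSPA6 at 8.49 to B3GALT2 at -3.02, and the values at the far left rest on few counts and depend on the prior count of the fit.

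The genes that moved furthest came from a few families. Among the 15 largest rises of genes with a mean of at least 2 CPM were the stress chaperone HSPA6, the immediate early factors EGR2, ARC and ATF3, the chemokines CXCL1 and CXCL2 and the cytokine IL1A. Others of the 15 have no shared role: KLF15, a Krüppel-like factor, was near silent in the knockout, at 5.12 and 3.99 CPM in the wild type knock-in and 0.122 and 0.109 CPM in the knockout (log2 5.22, SE 0.39). ALOXE3, a lipoxygenase of the skin barrier, was at 9.56 and 9.49 CPM in the knock-in, against 0.122 and 0.273 CPM in the knockout (log2 5.52, SE 0.33). SCN1A, a sodium channel of neurons, had 89 counts in the knock-in samples and 0 in the knockout samples, which makes it at least 28.2-fold higher with a floor of 3 counts over the group. The gene is nearly silent in the senescent control too, at 0.0574 and 0 CPM. In total 113 tested genes had 0 counts in the knockout samples and 77 of them were called higher, beside 17.5% of all genes. Such genes passed the filter only through other groups and could be called in no other direction, so this count is no result about them. Another 13 tested genes had 0 counts in the wild type knock-in samples, and 0 of them were called. The 15 largest falls were mostly genes of cell division and histones, with B3GALT2, a galactosyltransferase, at the head with 1.87 and 1.41 CPM in the knock-in and 13.6 and 12.9 CPM in the knockout (log2 -3.02, SE 0.22).

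**Figure D2:**
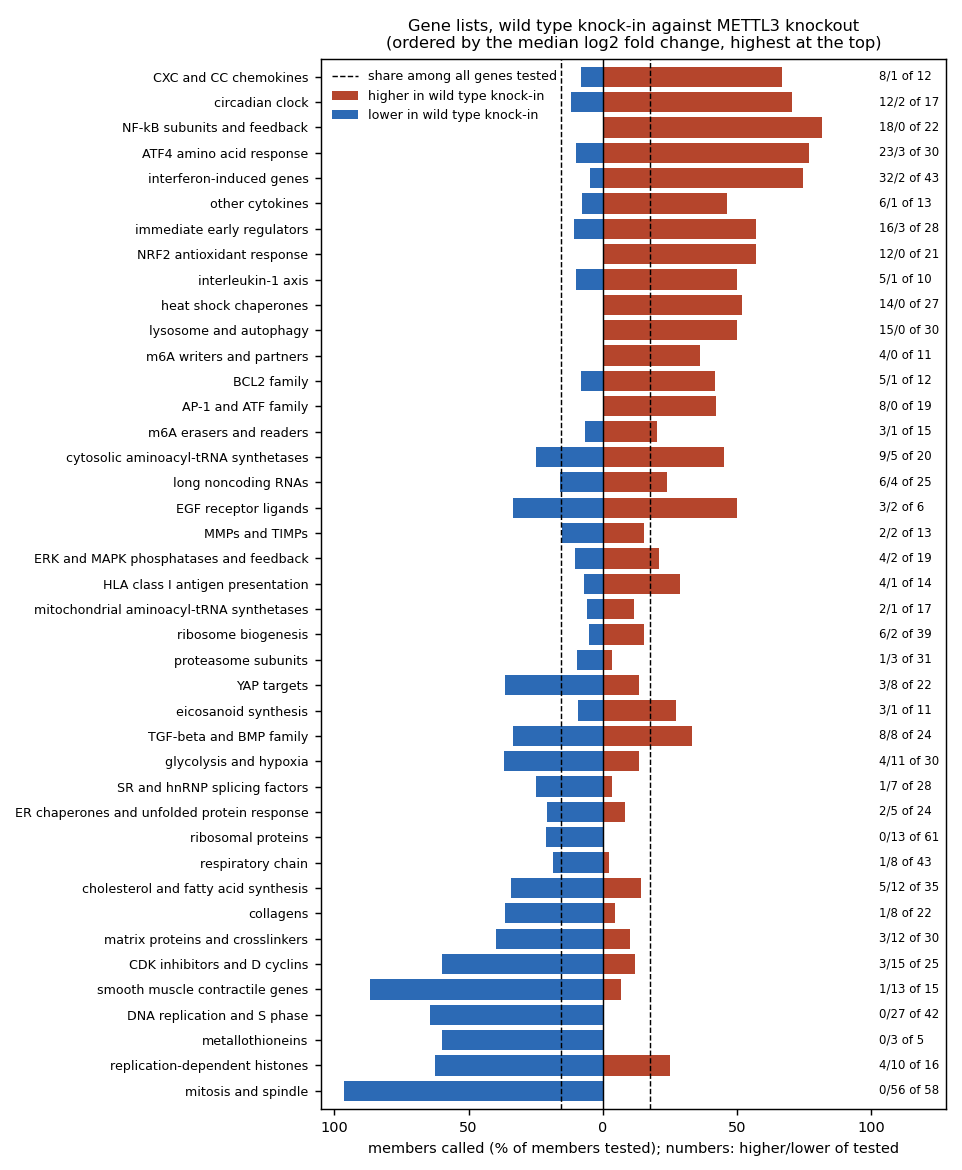
Share of the tested members of gene lists that were higher (red, to the right) or lower (blue, to the left) in wild type knock-in than in METTL3 knockout, in percent, with the counts at the right and the shares of all genes tested as dashed lines (17.5% and 15.5%). The lists are ordered by their median log2 fold change, with chemokines, clock genes, NF-kB regulators, ATF4 targets and interferon-induced genes at the top and mitosis, histones, metallothioneins and DNA replication at the bottom.

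NF-kB proteins are held in the cytoplasm by IkB inhibitors, and once free they activate cytokines together with the genes that switch them off again. Of 22 tested genes for NF-kB subunits, their feedback regulators and adhesion targets, 18 rose in wild type knock-in and the other 4 did not pass the test. The median log2 fold change was 1.07. TNFAIP3, the deubiquitinase A20 that ends NF-kB signalling, was at 166 and 177 CPM in the wild type knock-in, 273 and 332 CPM in the mutant knock-in, 15.9 and 16.5 CPM in the knockout and 52.0 and 46.6 CPM in the senescent control. Its log2 fold change over the knockout was 3.41 (SE 0.12, edgeR adjusted p = 5.38e-09), and the knock-in samples stood above all samples of the knockout and the senescent control. TRAF1, an adaptor of TNF receptors, was at 28.04 and 27.84 CPM in the wild type knock-in, against 2.56 and 2.73 CPM in the knockout (log2 3.40, SE 0.15). NFKBIE, an IkB inhibitor, rose by 2.76 on the log2 scale (SE 0.18), and VCAM1, an adhesion receptor for leukocytes, by 2.73 (SE 0.21). RELA, the main activating subunit, differed by 0.25 (SE 0.11, edgeR adjusted p = 0.0917) and did not pass the test. Of the 18 that rose, 13 were also above the senescent control and 2 were below it. These comparisons share the wild type knock-in samples and are not independent.

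Chemokines draw leukocytes into a tissue and are a large part of the SASP. Of 12 tested CXC and CC chemokines, 8 rose and 1 fell against the knockout (2 fell without wild type knock-in replicate 2), with a median log2 fold change of 2.31. Of the 8 that rose, 5 were nonetheless below the senescent control and 1 was above it. CXCL1, a neutrophil attractant, was at 3.87 and 5.74 CPM in the wild type knock-in, 0.183 and 0.164 CPM in the knockout and 17.9 and 12.8 CPM in the senescent control. CXCL3, a close relative, rests on few counts and had a ratio of wild type knock-in over knockout of 11.7 (95% interval 3.71 to 59.4 from counting error). The member that fell was CXCL12, which holds blood stem cells in the marrow and is not part of the same inflammatory set: it was at 5.62 and 6.72 CPM in the wild type knock-in, against 20.95 and 22.23 CPM in the knockout (log2 -1.80, SE 0.12). Promoters of chemokines are textbook NF-kB targets, and the 250 bases before the CXCL1 start (chr4:73869143-73869392, plus strand, build GRCh38.p14, from RefSeq) hold a kappaB site, shown in capitals, in 2 overlapping matches.
CXCL1 promoter: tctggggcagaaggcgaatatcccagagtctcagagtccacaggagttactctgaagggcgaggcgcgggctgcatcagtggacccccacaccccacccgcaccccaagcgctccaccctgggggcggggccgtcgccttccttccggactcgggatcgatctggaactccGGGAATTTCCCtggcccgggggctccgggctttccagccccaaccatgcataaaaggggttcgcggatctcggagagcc
A kappaB site on either of both strands was present in 7 of 10 promoter windows of the chemokine list (70.0%) and in 15 of 36 of the NF-kB list (41.7%), against 5.21% of all 35116 windows.

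The interleukin-1 family starts the cytokine cascade of senescent cells. In this list 5 of 10 tested members rose and 1 fell (3 rose without METTL3 knockout replicate 1 and 3 without wild type knock-in replicate 2). IL1RL1, the receptor of interleukin-33, was at 8.62 and 7.69 CPM in the wild type knock-in, against 1.89 and 1.74 CPM in the knockout (log2 2.16, SE 0.22). IRAK2, a kinase below the receptors, was at 51.0 and 53.9 CPM in the wild type knock-in, against 21.01 and 23.60 CPM in the knockout (log2 1.23, SE 0.10). IL18 went the other way, with 0.500 and 0.535 CPM in the wild type knock-in and 2.62 and 2.40 CPM in the knockout (log2 -2.26, SE 0.37). IL1B, at 6.06 and 8.91 CPM in the wild type knock-in, 3.53 and 4.58 CPM in the knockout and 166 and 133 CPM in the senescent control, stayed far below the senescent control, and its rise lost its call without knockout replicate 1 or knock-in replicate 2 (edgeR adjusted p up to 0.129). Of 13 other cytokines, 6 rose and 1 fell. TNFSF15, a TNF family member, was at 29.5 and 31.3 CPM in the wild type knock-in, 4.26 and 3.38 CPM in the knockout and 136 and 127 CPM in the senescent control. IL32 and TSLP, an inflammatory cytokine and an activator of dendritic cells, rose by 1.89 (SE 0.15) and 1.24 (SE 0.17) on the log2 scale, and IL11 fell by 0.73 (SE 0.16). Of 11 tested genes of eicosanoid synthesis and signalling, 3 rose and 1 fell: the phospholipases PLA2G4C and PLA2G4A and the cyclooxygenase PTGS2 rose by 1.26 (SE 0.15), 1.07 (SE 0.20) and 1.06 (SE 0.19). The receptor PTGER2 fell by 0.55 (SE 0.10). Among all genes 17.5% were higher and 15.5% lower.

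Immediate early genes are switched on within minutes of a signal, without new protein synthesis, often through serum response factor bound to CArG boxes. Of 28 tested members, 16 rose and 3 fell in wild type knock-in, with a median of 0.47. EGR1, a zinc finger activator, was at 357 and 378 CPM in the wild type knock-in, 358 and 432 CPM in the mutant knock-in, 38.3 and 35.2 CPM in the knockout and 73.3 and 70.9 CPM in the senescent control (log2 over the knockout 3.32, SE 0.15, edgeR adjusted p = 4.71e-08). The knock-in samples were the higher ones, with no overlap. EGR2 was at 14.7 and 18.2 CPM in the wild type knock-in, against 0.122 and 0.436 CPM in the knockout (log2 5.81, SE 0.33). EGR4 had 28 counts in the knock-in samples and 0 in the knockout samples and was at least 8.87-fold higher with the floor of 3 counts over the group. The family did not move as 1 block: SRF itself differed by -0.27 (SE 0.10, edgeR adjusted p = 0.0575), and FOS by 0.22 (SE 0.16, edgeR adjusted p = 0.331). CCN1, a matrix-bound growth factor, was at 173 and 219 CPM in the wild type knock-in and 361 and 380 CPM in the knockout, and fell by 0.92 (SE 0.12). The EGR1 promoter window (chr5:138465229-138465478, plus strand, GRCh38.p14, RefSeq) holds 2 CArG boxes, in capitals.
EGR1 promoter: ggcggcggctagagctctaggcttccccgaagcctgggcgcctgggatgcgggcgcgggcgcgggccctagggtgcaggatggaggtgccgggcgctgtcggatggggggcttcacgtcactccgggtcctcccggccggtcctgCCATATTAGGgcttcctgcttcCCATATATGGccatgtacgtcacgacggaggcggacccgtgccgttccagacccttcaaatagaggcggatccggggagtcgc
CArG boxes were present in 3 of 24 windows of the list (12.5%), against 1.16% of all windows, counted over both strands.

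Members of the AP-1 and ATF family pair through leucine zippers, and 8 of 19 tested rose (5 without METTL3 knockout replicate 2 and 5 without wild type knock-in replicate 2). ATF3, a stress-induced repressor, was at 56.4 and 68.8 CPM in the wild type knock-in, 71.2 and 85.5 CPM in the mutant knock-in, 3.53 and 3.43 CPM in the knockout and 6.09 and 4.15 CPM in the senescent control. Its log2 fold change over the knockout was 4.17 (SE 0.18). MAFF, a small MAF protein, rose by 2.02 (SE 0.11), and JUNB by 0.99 (SE 0.15). FOSL1, at 203 and 229 CPM in the wild type knock-in and 221 and 229 CPM in the knockout, overlapped between the groups. Among 19 feedback genes of the ERK pathway, 4 rose and 2 fell (1 fell without METTL3 knockout replicate 1, without knockout replicate 2 or without knock-in replicate 1). Among all genes 17.5% were higher and 15.5% lower, so the counts of this list are near the background. DUSP16, a phosphatase of JNK and p38, rose by 1.25 (SE 0.11), while DUSP1, a phosphatase of the same kinases, fell by 0.82 (SE 0.10). DUSP6, which removes phosphate from ERK, differed by 0.18 (SE 0.10, edgeR adjusted p = 0.162).

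**Figure D3:**
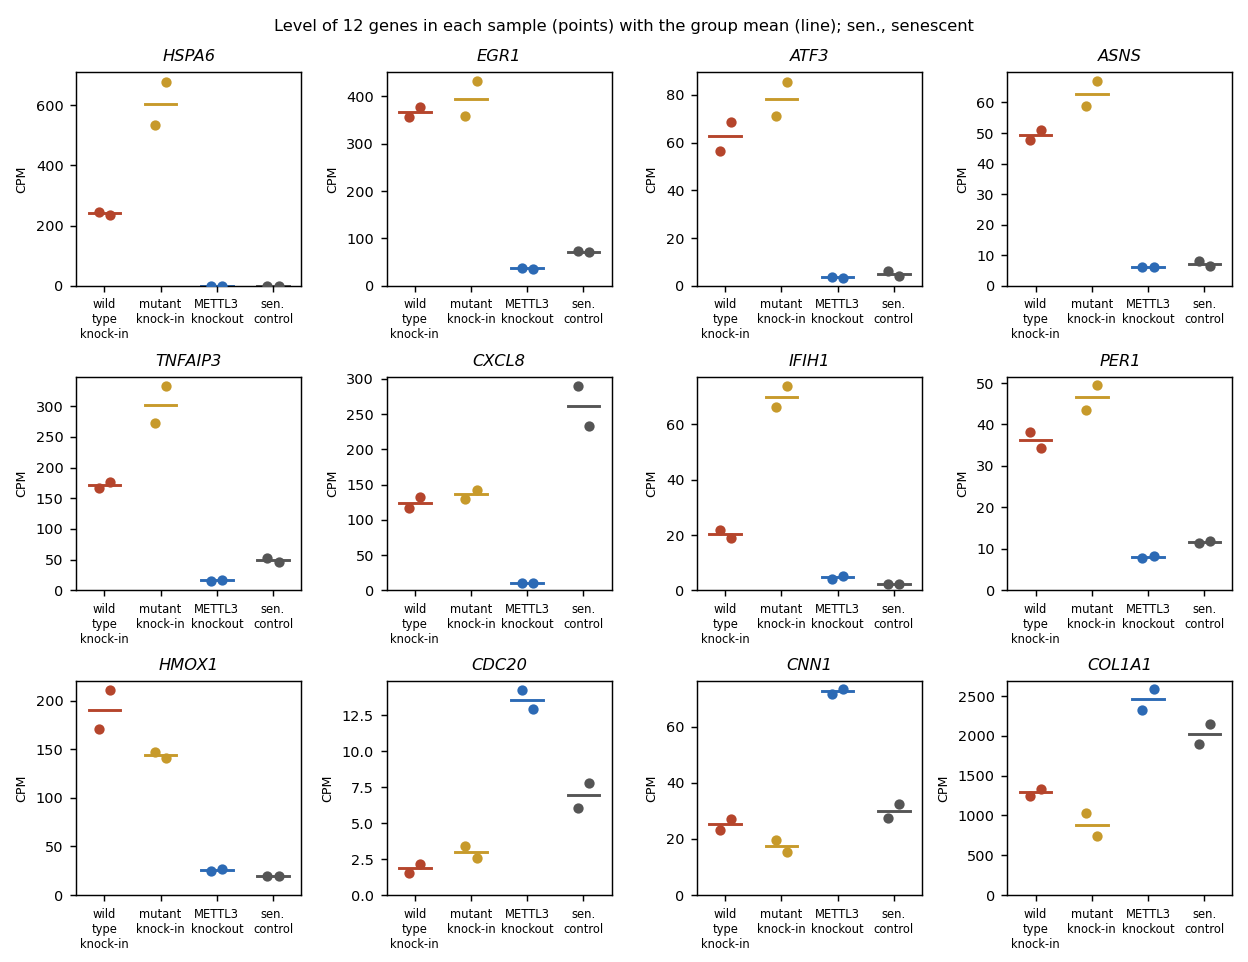
Level of 12 genes in CPM in each sample (points, 2 a group) with the group mean as a line, for wild type knock-in, mutant knock-in, METTL3 knockout and senescent control (linear axes from 0). HSPA6, EGR1, ATF3, ASNS, TNFAIP3, IFIH1, PER1 and HMOX1 are high in both knock-ins and low in the knockout and the senescent control, CXCL8 is highest in the senescent control, and CDC20, CNN1 and COL1A1 are highest in the knockout.

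Heat shock chaperones refold damaged proteins, and their inducible members are activated by HSF1 bound to heat shock elements. Of 27 tested chaperones and cochaperones, 14 rose in wild type knock-in and the other 13 did not pass the test (9 rose without METTL3 knockout replicate 2 and 9 without wild type knock-in replicate 2). HSPA6, an HSP70 that is nearly silent in unstressed cells, was at 246 and 235 CPM in the wild type knock-in, 534 and 677 CPM in the mutant knock-in, 0.731 and 0.600 CPM in the knockout and 0.517 and 0.382 CPM in the senescent control. Its log2 fold change over the knockout was 8.49 (SE 0.19, edgeR adjusted p = 6.71e-11). HSPA1A was at 1204 and 1211 CPM in the wild type knock-in, against 81.2 and 83.5 CPM in the knockout (log2 3.87, SE 0.11). HSPA1B was at 470 and 446 CPM in the wild type knock-in, against 37.5 and 37.2 CPM in the knockout (log2 3.62, SE 0.13). The reads of this near-identical pair may be divided between them in ways that cannot be checked, but both moved in the same direction. The cochaperone DNAJA4 was at 18.2 and 13.8 CPM in the wild type knock-in and 5.30 and 3.54 CPM in the knockout (log2 1.86, SE 0.21). HSPA6, HSPA1A, HSPA1B and DNAJA4 had the largest rises of the list. HSF1 itself was at 69.6 and 70.9 CPM in the wild type knock-in and 73.9 and 72.7 CPM in the knockout and did not pass the test. In 23 of the 27 genes both wild type knock-in samples were below both mutant knock-in samples, against 32.6% of all genes. The HSPA6 promoter window (chr1:161524290-161524539, plus strand, GRCh38.p14, RefSeq) holds a heat shock element, the blocks GAA, TTC and GAA with NN between neighbours, here on the minus strand and in capitals, 74 bases before the start.
HSPA6 promoter: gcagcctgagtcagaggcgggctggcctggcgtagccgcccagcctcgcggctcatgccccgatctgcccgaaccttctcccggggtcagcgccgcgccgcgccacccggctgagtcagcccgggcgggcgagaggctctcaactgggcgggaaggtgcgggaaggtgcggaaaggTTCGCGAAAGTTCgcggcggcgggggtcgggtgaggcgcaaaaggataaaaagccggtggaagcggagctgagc
That pattern, searched on both strands, was in 7 of 40 windows of the list (17.5%), against 0.441% of all windows. HSPA1A, HSPA1B and DNAJA4 were not among the genes found with it.

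ATF4 is a bZIP activator made when translation is slowed by a shortage of amino acids or by stress in the endoplasmic reticulum, and it raises genes for amino acid synthesis and uptake. Of 30 tested genes of this response, 23 rose and 3 fell in wild type knock-in, with a median of 1.02; 19 of the 23 were also above the senescent control. ASNS, asparagine synthetase, was at 47.8 and 51.1 CPM in the wild type knock-in, 58.9 and 67.0 CPM in the mutant knock-in, 6.21 and 6.10 CPM in the knockout and 8.10 and 6.35 CPM in the senescent control (log2 over the knockout 3.0, SE 0.14, edgeR adjusted p = 4.71e-08). TRIB3, a pseudokinase that restrains the pathway, was at 59.3 and 65.1 CPM in the wild type knock-in, against 11.4 and 10.3 CPM in the knockout (log2 2.52, SE 0.12). DDIT3, the stress factor CHOP, rose by 2.24 (SE 0.13), and PSAT1, an enzyme of serine synthesis, by 2.19 (SE 0.10). ATF4 RNA was at 127.0 and 128.4 CPM in the wild type knock-in and 82.8 and 80.1 CPM in the knockout, a smaller difference than that of these targets. The 3 that fell, ALDH18A1, ALDH1L2 and GPT2, did so by 0.37 to 0.42, and each lost its call when 1 of at least 2 of the 4 samples was left out. The ASNS window (chr7:97872409-97872658, minus strand, GRCh38.p14, RefSeq, 1 of 2 windows of the gene) holds TGATGNAA, in capitals, 68 bases before the start.
ASNS promoter: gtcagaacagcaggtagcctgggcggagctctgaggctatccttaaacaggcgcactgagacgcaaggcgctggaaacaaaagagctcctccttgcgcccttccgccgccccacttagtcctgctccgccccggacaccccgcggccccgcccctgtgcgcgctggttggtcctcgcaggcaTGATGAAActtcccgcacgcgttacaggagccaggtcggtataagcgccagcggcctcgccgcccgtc
This pattern was found on either strand in 4 of 36 windows of the list (11.1%), against 3.14% of all windows.

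Aminoacyl-tRNA synthetases, which load amino acids onto tRNAs, moved in both directions. Of 20 cytosolic synthetase genes, 9 rose and 5 fell. AARS1 was at 199 and 205 CPM in the wild type knock-in, against 74.6 and 73.4 CPM in the knockout (log2 1.45, SE 0.11). CARS1, YARS1 and WARS1 rose by 0.85 (SE 0.09), 0.79 (SE 0.09) and 0.76 (SE 0.10). FARSB and QARS1 fell by 0.55 (SE 0.10) and 0.51 (SE 0.10), and the number that fell was 2 without METTL3 knockout replicate 1, 3 without knockout replicate 2 and 2 without wild type knock-in replicate 1. Among chaperones and sensors of the endoplasmic reticulum 2 of 24 rose and 5 fell, against 17.5% and 15.5% of all genes. ERN1, the sensor kinase IRE1, was at 92.8 and 83.7 CPM in the wild type knock-in, 23.1 and 25.5 CPM in the knockout and 33.5 and 33.5 CPM in the senescent control (log2 over the knockout 1.86, SE 0.11). HSPA5, the chaperone BiP, was at 731 and 764 CPM in the wild type knock-in, against 549 and 583 CPM in the knockout, and its rise of 0.40 (SE 0.08) was lost without knockout replicate 1 (edgeR adjusted p = 0.0529). The number that fell was 1 without knockout replicate 1, 2 without knockout replicate 2 and 0 without knock-in replicate 1.

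NRF2, encoded by NFE2L2, activates genes that detoxify oxidants and handle iron and heme. Of 21 tested members of this response, 12 rose in wild type knock-in and the other 9 did not pass the test. HMOX1, heme oxygenase, was at 171 and 211 CPM in the wild type knock-in, 147 and 141 CPM in the mutant knock-in, 25.0 and 27.0 CPM in the knockout and 19.47 and 19.95 CPM in the senescent control (log2 over the knockout 2.87, SE 0.12, edgeR adjusted p = 2.47e-08). OSGIN1, an oxidative stress inhibitor of growth, was at 24.2 and 23.2 CPM in the wild type knock-in, against 6.03 and 6.92 CPM in the knockout (log2 1.87, SE 0.14). NFE2L2 itself was at 300 and 305 CPM in the wild type knock-in, against 134 and 139 CPM in the knockout (log2 1.15, SE 0.12). FTL, the ferritin light chain, was at 4461 and 4826 CPM in the wild type knock-in, against 2440 and 2330 CPM in the knockout (log2 0.96, SE 0.09). Of the 12 that rose, 8 were above the senescent control and 2 below it. In 16 of the 21 genes both wild type knock-in samples were above both mutant knock-in samples, against 29.9% of all genes.

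Of 5 metallothioneins, small zinc and copper binding proteins, 3 fell, beside 15.5% of all genes. MT1E was at 34.2 and 42.5 CPM in the wild type knock-in, 95.0 and 92.2 CPM in the knockout and 131 and 123 CPM in the senescent control (log2 over the knockout -1.28, SE 0.11). MT1X fell by 1.37 (SE 0.15) and MT2A by 0.67 (SE 0.12), and their sequences are close enough that reads may be shared. Of 30 genes of lysosomes and autophagy, 15 rose and the other 15 did not pass the test (8 rose without METTL3 knockout replicate 1 and 8 without wild type knock-in replicate 2). The share of all genes that were higher was 17.5%. SQSTM1, the autophagy receptor p62, was at 1117 and 1177 CPM in the wild type knock-in, 357 and 369 CPM in the knockout and 759 and 703 CPM in the senescent control (log2 over the knockout 1.66, SE 0.10). HEXA, a lysosomal hydrolase, and CTSK, a protease, rose by 0.86 (SE 0.09) and 0.84 (SE 0.09). GLB1, the enzyme behind the beta-galactosidase stain of senescent cells, was at 73.6 and 85.1 CPM in the wild type knock-in and 88.0 and 97.7 CPM in the knockout and did not pass the test (edgeR adjusted p = 0.143). TFEB, a regulator of lysosomal genes, was low at 2.56 and 2.29 CPM in the wild type knock-in, against 2.86 and 3.87 CPM in the knockout.

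Interferon-induced genes block the spread of viruses and are switched on when interferon binds its receptor. Of 43 tested, 32 rose and 2 fell in wild type knock-in, with a median of 1.01. IFIH1, the RNA sensor MDA5, was at 21.86 and 19.03 CPM in the wild type knock-in, 66.4 and 73.7 CPM in the mutant knock-in, 4.26 and 5.07 CPM in the knockout and 2.41 and 2.34 CPM in the senescent control (log2 over the knockout 2.12, SE 0.17, edgeR adjusted p = 4.15e-06). HERC5, the ligase for the ubiquitin-like ISG15, was at 5.68 and 4.19 CPM in the wild type knock-in, against 1.46 and 0.817 CPM in the knockout (log2 2.11, SE 0.27). IRF7, an activator of interferon genes, was at 7.31 and 7.06 CPM in the wild type knock-in, against 1.04 and 2.45 CPM in the knockout (log2 2.01, SE 0.31). The knock-in samples were above the knockout samples in each of these 3 genes, and the knockout samples of IRF7 lay further apart than those of IFIH1. OASL rose by 2.01 (SE 0.47), and lost its call without METTL3 knockout replicate 1 (edgeR adjusted p = 0.0646). TRIM22 and GBP1, a viral restriction factor and a guanylate-binding protein, fell by 0.45 (SE 0.11) and 0.51 (SE 0.11). TRIM22 lost its call without wild type knock-in replicate 2 (edgeR adjusted p = 0.0575) and GBP1 without knockout replicate 2 (0.0516).

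Of the 32 interferon-induced genes that rose, 31 were also above the senescent control. In 42 of the 43 genes both wild type knock-in samples were below both mutant knock-in samples, against 32.6% of all genes. The knock-ins differ in METTL3 RNA, which was lower in the wild type, and in the METTL3 mutation. The parts of these in that difference cannot be told apart. Since lentivirus treatment of the knockout cells is not given, the part of the infection in the rises over the knockout cannot be told apart from that of METTL3. The leukocyte markers moved in the same direction, as given above, and their part was not tested. Class I HLA proteins show peptides to T cells. Of 14 genes of this presentation, 4 rose and 1 fell, against 17.5% and 15.5% of all genes. HLA-B rose by 0.56 (SE 0.11), and reads may be shared among the related HLA genes. The peptide transporter subunits moved apart, with TAP1 up by 0.63 (SE 0.11) and TAP2 down, at 35.0 and 34.8 CPM in the wild type knock-in and 51.0 and 53.1 CPM in the knockout (log2 -0.58, SE 0.09). The HERC5 window (chr4:88456869-88457118, plus strand, GRCh38.p14, RefSeq) holds the interferon response pattern, TTTC, then NN, then TTTC, in 3 matches, 2 of which overlap, in capitals.
HERC5 promoter: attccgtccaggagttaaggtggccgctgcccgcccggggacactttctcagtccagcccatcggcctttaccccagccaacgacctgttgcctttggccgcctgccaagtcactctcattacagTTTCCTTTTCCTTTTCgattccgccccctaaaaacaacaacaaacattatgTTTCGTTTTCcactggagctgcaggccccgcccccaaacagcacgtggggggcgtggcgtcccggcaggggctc
The pattern, on either of both strands, was in 26 of 43 windows of the list (60.5%), against 3.02% of all windows.

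**Figure D4:**
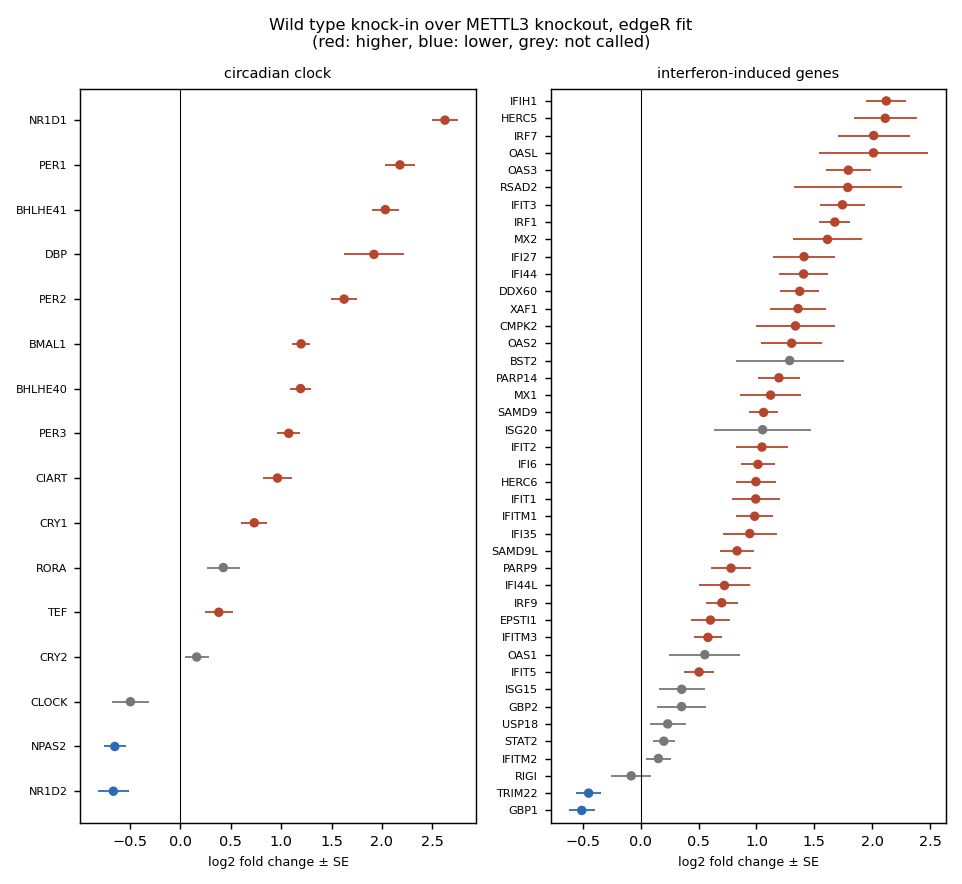
Log2 fold change of wild type knock-in over METTL3 knockout with its standard error (horizontal axis) for tested members of the circadian clock list and the interferon list (vertical axis); red, blue and grey mark genes that were higher, lower or not called. NR1D1 and PER1 lead the clock panel at 2.63 and 2.18, NPAS2 and NR1D2 stand at its foot, and HLF, which had 0 counts in the knockout, is not drawn.

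The circadian clock is a loop in which CLOCK and BMAL1 bind E-boxes and activate the PER and CRY repressors, the nuclear receptors NR1D1 and NR1D2 and output factors such as HLF. Of 17 tested clock genes, 12 rose and 2 fell in wild type knock-in, with a median log2 fold change of 1.08. All 12 were also above the senescent control. NR1D1, the repressor REV-ERB alpha, was at 129 and 132 CPM in the wild type knock-in, 149 and 172 CPM in the mutant knock-in, 22.1 and 20.2 CPM in the knockout and 30.3 and 31.8 CPM in the senescent control (log2 over the knockout 2.63, SE 0.13, edgeR adjusted p = 6.51e-08). PER1 was at 38.2 and 34.3 CPM in the wild type knock-in, against 7.73 and 8.23 CPM in the knockout (log2 2.18, SE 0.15). BHLHE41, a repressor of E-box genes, was at 32.3 and 36.1 CPM in the wild type knock-in, against 7.86 and 8.83 CPM in the knockout (log2 2.03, SE 0.13). All 4 samples of these genes separated by group. HLF had 36 counts in the knock-in samples and 0 in the knockout samples and was at least 11.4-fold higher with the floor of 3 counts over the group. With HLF at its bound the median of the list was the same.

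The members that fell were NPAS2, a relative of CLOCK, and NR1D2, the partner of NR1D1. NPAS2 was at 28.4 and 28.7 CPM in the wild type knock-in, 46.7 and 43.2 CPM in the knockout and 36.8 and 38.7 CPM in the senescent control (log2 over the knockout -0.65, SE 0.11). NR1D2 was at 57.6 and 61.8 CPM in the wild type knock-in, against 99.1 and 90.4 CPM in the knockout (log2 -0.67, SE 0.15), and lost its call without wild type knock-in replicate 1 (edgeR adjusted p = 0.0529). CLOCK was at 81.1 and 91.1 CPM in the wild type knock-in and 122 and 121 CPM in the knockout, a log2 difference of -0.50 that did not pass the test (edgeR adjusted p = 0.0656). NR1D1 and NR1D2, which share their function in the loop, therefore lay on opposite sides. The sources used here give no time of day for the harvest. The PER1 window (chr17:8152405-8152654, minus strand, GRCh38.p14, RefSeq) holds an E-box, CACGTG, in capitals, 173 bases before the start.
PER1 promoter: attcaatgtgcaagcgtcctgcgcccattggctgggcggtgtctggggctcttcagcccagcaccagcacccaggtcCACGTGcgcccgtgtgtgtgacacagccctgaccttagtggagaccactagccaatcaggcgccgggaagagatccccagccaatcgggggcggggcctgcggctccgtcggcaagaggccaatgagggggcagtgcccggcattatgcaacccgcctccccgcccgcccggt
E-boxes, which read the same on both strands, were in 7 of 24 windows of the list (29.2%), against 6.34% of all windows.

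The genes that write, read and erase m6A moved less than METTL3. Of 11 other writers and partners 4 rose (2 without METTL3 knockout replicate 1 and 2 without wild type knock-in replicate 2). METTL14, which forms a dimer with METTL3 and is the gene named in the protocol text, was at 31.0 and 32.5 CPM in the wild type knock-in and 30.7 and 31.3 CPM in the knockout, a log2 difference of 0.04 (SE 0.14, edgeR adjusted p = 0.878). RBM15, which recruits the complex to RNA, was at 49.8 and 50.3 CPM in the wild type knock-in, 26.2 and 26.4 CPM in the knockout and 27.8 and 27.8 CPM in the senescent control (log2 over the knockout 0.93, SE 0.09). METTL16, a separate m6A writer, rose by 0.63 (SE 0.09). WTAP was at 139 and 143 CPM in the wild type knock-in, against 101 and 107 CPM in the knockout (log2 0.44, SE 0.10), and lost its call without knockout replicate 1 or knock-in replicate 2 (edgeR adjusted p up to 0.0617). Of 15 readers and erasers 3 rose and 1 fell, near or below the 17.5% and 15.5% of all genes. YTHDC1, the reader in the nucleus, was at 146 and 135 CPM in the wild type knock-in and 76.0 and 69.6 CPM in the knockout (log2 0.95, SE 0.11), and YTHDF2, which leads marked RNA to decay, rose by 0.70 (SE 0.09). ELAVL1, a stabilizing RNA-binding protein, fell by 0.62 (SE 0.11). The erasers FTO and ALKBH5 differed by 0.08 (SE 0.09) and -0.25 (SE 0.12) and did not pass the test.

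Genes of cell division were lower in wild type knock-in than in METTL3 knockout. Of 58 tested genes of mitosis and the spindle, 56 fell and the other 2 did not pass the test, with a median of -1.62 and with 49 to 53 falls when any 1 of the 4 samples was left out. ECT2 and SPC25, at -0.26 (SE 0.13) and -0.33 (SE 0.23), were the 2. CDK1, the kinase that drives entry into mitosis, was at 2.06 and 2.19 CPM in the wild type knock-in, 3.13 and 3.46 CPM in the mutant knock-in, 11.4 and 10.5 CPM in the knockout and 4.77 and 4.96 CPM in the senescent control (log2 over the knockout -2.36, SE 0.20, edgeR adjusted p = 5.89e-06). TOP2A, which untangles chromosomes, was at 16.43 and 16.01 CPM in the wild type knock-in, 86.9 and 77.2 CPM in the knockout and 32.7 and 38.7 CPM in the senescent control (log2 over the knockout -2.34, SE 0.18). The knockout samples were the highest of the RAS samples for both. BIRC5, the survivin subunit of the chromosomal passenger complex, and NDC80, which links kinetochores to microtubules, fell by 2.27 (SE 0.16) and 2.22 (SE 0.22). Of the 56 that fell, 28 were also below the senescent control, 2 were above it, and 26 did not pass that test. CDC20, an activator of the anaphase-promoting complex, was at 1.56 and 2.19 CPM in the wild type knock-in, 14.3 and 12.9 CPM in the knockout and 6.09 and 7.78 CPM in the senescent control. The CDC20 window (chr1:43358731-43358980, plus strand, GRCh38.p14, RefSeq) holds TTTGAA, the core of the CHR element of cell cycle promoters, in 2 matches counted over both strands, in capitals.
CDC20 promoter: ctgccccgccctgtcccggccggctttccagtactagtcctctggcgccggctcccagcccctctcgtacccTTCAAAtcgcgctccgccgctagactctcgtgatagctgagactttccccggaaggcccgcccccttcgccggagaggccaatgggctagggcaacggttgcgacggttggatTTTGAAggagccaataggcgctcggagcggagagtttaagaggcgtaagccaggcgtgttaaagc
This short pattern was in 27 of 62 windows of the list (43.5%), against 13.3% of all windows.

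DNA replication showed the same direction with a smaller median. Of 42 tested genes of the S phase, 27 fell, with a median of -0.66, and 19 to 26 fell when 1 sample was left out. TK1, thymidine kinase, was at 1.19 and 0.973 CPM in the wild type knock-in, 8.34 and 6.92 CPM in the knockout and 3.45 and 3.10 CPM in the senescent control. RRM2, the small subunit of ribonucleotide reductase, was at 7.87 and 8.18 CPM in the wild type knock-in, against 38.6 and 31.9 CPM in the knockout (log2 -2.13, SE 0.12). Of the 27, 7 were also below the senescent control and 20 did not pass that test. Histone genes that are switched on for replication followed in most cases, with 10 of 16 lower and 4 higher. H1-3 was at 1.56 and 1.36 CPM in the wild type knock-in, against 8.16 and 7.74 CPM in the knockout (log2 -2.45, SE 0.20), and H1-5 fell by 2.42 (SE 0.17). H2AC6, which is known to give polyadenylated RNA outside of S phase, was at 111 and 114 CPM in the knock-in, against 71.2 and 65.9 CPM in the knockout (log2 0.71, SE 0.09). H4C8 and H2BC5 rose by 0.70 (SE 0.10) and 0.61 (SE 0.11). Histone genes are alike in sequence, and their counts are uncertain for that reason.

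Among 25 genes of CDK inhibitors, D cyclins, E2F and pocket proteins, 3 rose and 15 fell (9 fell without METTL3 knockout replicate 1 and 6 without wild type knock-in replicate 1). The shares of all genes were 17.5% higher and 15.5% lower, so rises in this list were below the background. The 3 that rose include brakes on the cycle. E2F7, an atypical repressor of E2F targets, was at 437 and 441 CPM in the wild type knock-in, 182 and 177 CPM in the knockout and 264 and 263 CPM in the senescent control (log2 over the knockout 1.29, SE 0.08). CDKN2B, the CDK4 and CDK6 inhibitor p15, was at 115 and 121 CPM in the wild type knock-in, against 46.7 and 52.5 CPM in the knockout (log2 1.25, SE 0.10). CDK4 rose by 0.40 (SE 0.10), a call lost without knockout replicate 2 or knock-in replicate 2. Of those that fell, MYBL2, an activator of mitotic genes, was at 1.06 and 1.12 CPM in the wild type knock-in and 6.46 and 4.85 CPM in the knockout (log2 -2.36, SE 0.24), and RBL2, the pocket protein p130, fell by 0.80 (SE 0.09).

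Of 12 genes of the BCL2 family, which set the threshold of apoptosis, 5 rose and 1 fell (2 fell without wild type knock-in replicate 2). Beside these counts, 17.5% of all genes were higher and 15.5% lower, so falls in the full fit were below the background. BMF, a promoter of death, was at 13.9 and 14.3 CPM in the wild type knock-in, 2.86 and 3.27 CPM in the knockout and 4.13 and 3.39 CPM in the senescent control (log2 over the knockout 2.19, SE 0.15). BCL2A1, a survival protein and NF-kB target, was at 1.25 and 1.27 CPM in the wild type knock-in, 0.122 and 0.164 CPM in the knockout and 3.33 and 3.29 CPM in the senescent control (log2 over the knockout 3.07, SE 0.48). Members that promote and that block death rose side by side: BCL2L11, the death promoter BIM, by 1.64 (SE 0.27), and BCL2L1, whose main form BCL-XL blocks death, by 0.60 (SE 0.09). BID, which links death receptors to mitochondria, fell by 0.56 (SE 0.10).

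Contractile genes of smooth muscle, which mark activated fibroblasts, were lower in wild type knock-in. Of 15 tested, 13 fell and 1 rose, with a median of -0.53, against 15.5% lower and 17.5% higher among all genes. CNN1, the actin-binding calponin, was at 23.2 and 27.2 CPM in the wild type knock-in, 19.7 and 15.4 CPM in the mutant knock-in, 71.8 and 73.4 CPM in the knockout and 27.5 and 32.5 CPM in the senescent control (log2 over the knockout -1.52, SE 0.14, edgeR adjusted p = 8.68e-06). ACTA2, smooth muscle alpha actin, was at 147 and 161 CPM in the wild type knock-in, 352 and 347 CPM in the knockout and 159 and 198 CPM in the senescent control (log2 over the knockout -1.18, SE 0.11). In both genes the knockout samples were the highest of the RAS samples. ACTA2 in growing control was at 371 and 337 CPM. ACTG2, the gamma smooth muscle actin, was at 105 and 120 CPM in the wild type knock-in, against 292 and 317 CPM in the knockout. CALD1, caldesmon, fell by 1.01 (SE 0.24), a call that was lost with no filter on low counts or without wild type knock-in replicate 1 (edgeR adjusted p up to 0.0968). MYOCD, the coactivator that turns these genes on in smooth muscle, moved the other way, at 5.37 and 4.72 CPM in the wild type knock-in and 2.74 and 2.34 CPM in the knockout (log2 0.99, SE 0.21), and lost its call without METTL3 knockout replicate 2 (edgeR adjusted p = 0.0564). Of the 13 that fell, 4 were also below the senescent control, 1 was above it and 8 did not pass that test.

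**Figure D5:**
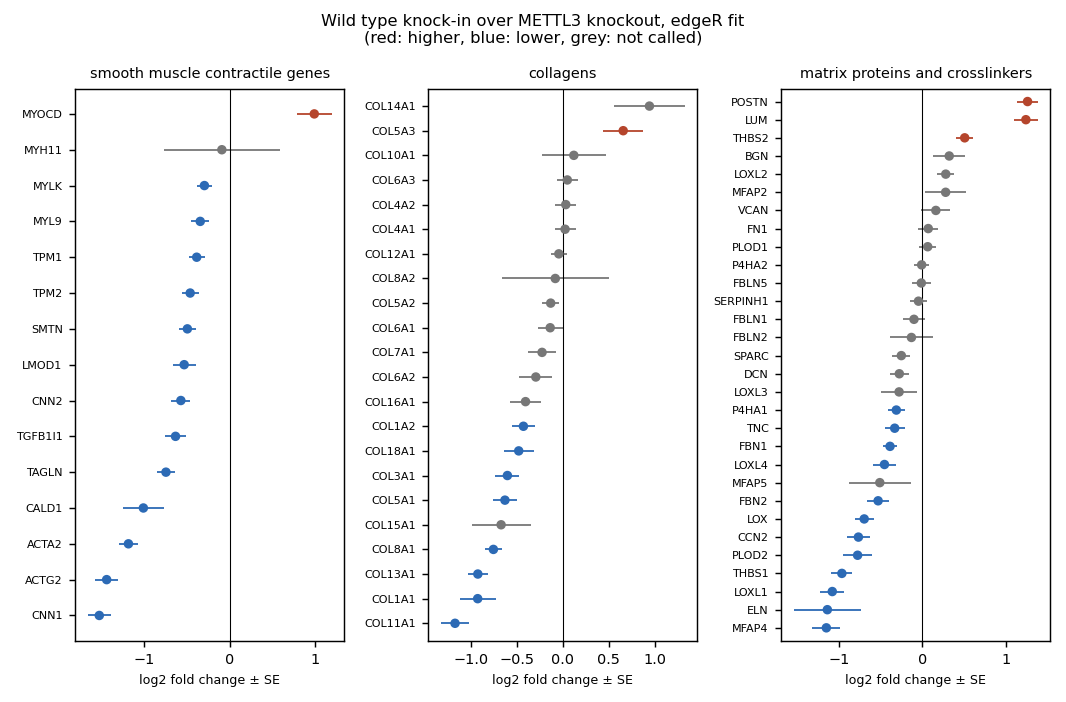
Log2 fold change of wild type knock-in over METTL3 knockout with its standard error (horizontal axis) for each tested smooth muscle, collagen and matrix gene (vertical axis); red, blue and grey mark genes that were higher, lower or not called. Most called genes are blue, with CNN1 at -1.52 and COL11A1 at -1.18, and POSTN and LUM, at 1.26 and 1.24, head the matrix panel.

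Collagens and matrix proteins followed in part. Of 22 collagen genes, 8 fell and 1 rose, against 15.5% lower and 17.5% higher among all genes. COL1A1, the main fibrillar collagen chain, was at 1250 and 1331 CPM in the wild type knock-in, 1029 and 744 CPM in the mutant knock-in, 2324 and 2596 CPM in the knockout and 1894 and 2154 CPM in the senescent control (log2 over the knockout -0.93, SE 0.20). COL11A1, COL13A1 and COL8A1 fell by 1.18 (SE 0.16), 0.93 (SE 0.11) and 0.76 (SE 0.09). COL4A1, a basement membrane chain, was at 803 and 832 CPM in the wild type knock-in and 758 and 851 CPM in the knockout, and the groups overlapped. COL5A3, the member that rose (log2 0.66, SE 0.22), lost its call under DESeq2, with no filter and without knockout replicate 1, knockout replicate 2 or knock-in replicate 1. Of 30 matrix proteins and crosslinking enzymes, 12 fell and 3 rose (7 fell without METTL3 knockout replicate 2 and 5 without wild type knock-in replicate 1). THBS1, an activator of latent TGF-beta, was at 1078 and 1207 CPM in the wild type knock-in, against 2143 and 2321 CPM in the knockout (log2 -0.97, SE 0.12), and LOXL1, which crosslinks elastin, fell by 1.08 (SE 0.14). POSTN, periostin, was at 98.4 and 110 CPM in the wild type knock-in, against 41.9 and 45.2 CPM in the knockout (log2 1.26, SE 0.13), and LUM, the collagen-binding lumican, rose by 1.24 (SE 0.15). FN1, fibronectin, one of the most abundant RNAs of these cells, was at 8223 and 8647 CPM in the knock-in and 7692 and 8388 CPM in the knockout, and the groups overlapped. The fibroblast marker sum given above includes 3 of these collagens and was lower in the knock-in, and its part in the other values was not tested.

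Of 13 matrix metalloproteinases and their inhibitors, 2 rose and 2 fell, a share close to the 17.5% and 15.5% of all genes. The proteases MMP19 and MMP2 were the 2 that rose: MMP2, a gelatinase, was at 355 and 366 CPM in the wild type knock-in, 177 and 183 CPM in the knockout and 256 and 251 CPM in the senescent control (log2 over the knockout 1.00, SE 0.10). The inhibitors TIMP3 and TIMP2 fell, TIMP3 at 407 and 411 CPM in the wild type knock-in and 818 and 889 CPM in the knockout (log2 -1.06, SE 0.11). In the TGF-beta and BMP family 8 of 24 rose and 8 fell (4 rose without METTL3 knockout replicate 1, 4 without knockout replicate 2, 5 without knock-in replicate 1 and 4 without knock-in replicate 2). Ligands and antagonists are both among them. BMP2 was at 51.6 and 58.3 CPM in the wild type knock-in, 22.11 and 21.04 CPM in the knockout and 148 and 137 CPM in the senescent control (log2 over the knockout 1.35, SE 0.12), and BMP4 rose by 1.54 (SE 0.16). INHBE, a stress-induced activin subunit, had a ratio of wild type knock-in over knockout of 24.7 (95% interval 6.51 to 210 from counting error). FST, the activin antagonist follistatin, was at 66.4 and 71.6 CPM in the wild type knock-in and 161 and 161 CPM in the knockout (log2 -1.22, SE 0.09), and NOG, the BMP antagonist noggin, fell by 1.09 (SE 0.15).

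YAP and TAZ carry mechanical signals to TEAD factors in the nucleus. Of 22 genes of this pathway and its targets, 8 fell and 3 rose (4 fell without METTL3 knockout replicate 1, 4 without knockout replicate 2 and 4 without wild type knock-in replicate 1). The shares of all genes were 15.5% lower and 17.5% higher, so the rises of this list were below the background. WWTR1, which encodes TAZ, was at 115 and 141 CPM in the wild type knock-in, 266 and 255 CPM in the knockout and 305 and 296 CPM in the senescent control (log2 over the knockout -1.02, SE 0.10). TEAD1 was at 418 and 438 CPM in the wild type knock-in, against 798 and 784 CPM in the knockout (log2 -0.89, SE 0.14). ANKRD1, a target, fell by 0.94 (SE 0.18), while NUAK2, a kinase that is also a target, rose by 0.94 (SE 0.14). Of 6 tested genes of EGF receptors and ligands, 3 rose and 2 fell, few members to set beside the same shares of all genes. The ligands AREG and EREG rose by 2.07 (SE 0.16) and 0.77 (SE 0.11), and the ligand HBEGF fell by 0.55 (SE 0.10).

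Calls among metabolic genes, like those among all genes, depended on single samples. With all samples in the fit, 17.5% of all genes were higher and 15.5% lower. Of 30 genes of glycolysis and the hypoxia response, 11 fell and 4 rose (5 fell without METTL3 knockout replicate 1, 7 without knockout replicate 2 and 4 without wild type knock-in replicate 1; 2 rose without either knockout replicate and without knock-in replicate 2). LDHA, lactate dehydrogenase, was at 260 and 300 CPM in the wild type knock-in, 487 and 461 CPM in the knockout and 741 and 736 CPM in the senescent control (log2 over the knockout -0.76, SE 0.09), and ADM, the vasodilator adrenomedullin, fell by 0.86 (SE 0.11). VEGFA, a growth factor of vessels that hypoxia also induces, rose by 0.57 (SE 0.10). Of 35 genes of cholesterol and fatty acid synthesis, 12 fell and 5 rose (6 and 4 fell without knockout replicate 1 and knock-in replicate 1; 2, 0 and 0 rose without knockout replicate 1, knockout replicate 2 and knock-in replicate 2). FASN, fatty acid synthase, fell by 0.65 (SE 0.14), a call lost without knock-in replicate 1 (edgeR adjusted p = 0.0512). HMGCS1, an early enzyme of cholesterol synthesis, was higher by 0.56 (SE 0.12), a call lost without knockout replicate 2 or knock-in replicate 2.

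Of 61 ribosomal protein genes 13 fell, beside the 15.5% of all genes that were lower (25 fell with no filter, 28 with only the 4 samples in the fit, 3 without METTL3 knockout replicate 1 and 4 without wild type knock-in replicate 1). Of 43 respiratory chain genes 8 fell and 1 rose (3 fell without knockout replicate 1 and 3 without knock-in replicate 1, and the rise was lost without any 1 of the 4 samples). Of 31 proteasome subunits 3 fell and 1 rose. Splicing factors of the SR and hnRNP classes had 7 falls and 1 rise among 28 (4, 4 and 3 falls without knockout replicate 1, knockout replicate 2 and knock-in replicate 1). In both directions together these housekeeping sets stayed near or below the background of 33.0% called, but most of their calls were falls. Rises were 0 of 61 ribosomal, 1 of 43 respiratory chain, 1 of 31 proteasome and 1 of 28 splicing genes, against 17.5% of all genes. Both knock-in samples were below both knockout samples in 38, 32, 12 and 19 of these genes, against 34.9% of all genes.

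Among 25 long noncoding RNAs 6 rose and 4 fell (3 rose without METTL3 knockout replicate 2; 2, 2, 1 and 1 fell without knockout replicate 1, knockout replicate 2, knock-in replicate 1 and knock-in replicate 2). These counts are near the 17.5% and 15.5% of all genes. LUCAT1, a stress-induced RNA, was at 10.6 and 9.54 CPM in the wild type knock-in, 1.58 and 2.83 CPM in the knockout and 3.62 and 5.06 CPM in the senescent control (log2 over the knockout 2.17, SE 0.24). NORAD, which binds PUMILIO proteins, was at 295 and 330 CPM in the wild type knock-in, against 594 and 589 CPM in the knockout (log2 -0.92, SE 0.10). MALAT1, an abundant nuclear RNA, was at 19540 and 16090 CPM in the knock-in and 12600 and 13620 CPM in the knockout, and did not pass the test (edgeR adjusted p = 0.0672). NEAT1, the RNA that scaffolds paraspeckles, was at 4518 and 2327 CPM in the wild type knock-in, against 1839 and 1893 CPM in the knockout, with the knock-in samples far apart (edgeR adjusted p = 0.0553). Of all 780 tested long intergenic RNAs, 102 were higher and 43 lower, 13.1% and 5.51%, while 18.9% and 17.5% of the 13390 protein-coding genes were higher and lower.

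Among the genes that passed the filter, the balance of rises and falls differed between classes of level. In the lowest of 4 classes of equal size by mean level, 0.133 to 2.16 CPM, 577 rose and 163 fell, with a median absolute log2 fold change of 2.05 among those called. Genes this low could pass the count filter through the knock-in samples alone, and the mean level includes those samples. The excess of rises in this class may thus be fixed in part by the choice of genes, and it is no result about level. With no filter, 2893 of all genes were called higher and 3316 lower. In the highest class, from 52.2 CPM, 708 rose and 1012 fell, with a median of 0.50. More genes were detected in the knock-in, with a count in 24270 and 24501 genes in the wild type knock-in samples, against 22663 and 22713 in the knockout samples. Protein-coding genes in the longest of 4 classes by genomic span were higher in 22.8% of cases and lower in 15.9%, against 16.99% and 16.72% in the shortest class. These shares describe the genes tested, and depth and level move with them.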

How the data were processed

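The deposited table holds read counts of 10 samples as whole numbers, with Ensembl gene IDs. Bowtie2, RSEM 1.2.12 and build hg19 are named in the submitters' processing notes. Libraries were made with KAPA RNA HyperPrep from RNeasy extracts after DNase I treatment, per the labels' protocols. No source used here gives the annotation, the strand setting or the handling of reads that map to several genes, so counts of overlapping, antisense or near-identical genes are uncertain.

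The deposited counts were fitted with edgeR 4.0.16 in R 4.3.3 (filterByExpr, minimum count 10, 16916 of 57736 genes; TMM; robust quasi-likelihood, two-sided, Benjamini-Hochberg over all genes tested). All 10 samples entered 1 model with a coefficient per group and 5 residual degrees of freedom. METTL3 was left out of library totals. CPM were computed from the counts and TMM-scaled totals. Standard errors were derived from F statistics and use a dispersion shared by all samples (biological coefficient of variation 9.27%). A chi-square statistic per gene between the 2 replicates was 37.7 in growing control, against 3.9 to 6.68 in the RAS groups. Growing control enters the shared dispersion, and its part in which genes did or did not pass was not tested. Data were simulated for wild type knock-in against METTL3 knockout with 16246 genes, 200 of them changed. The changed genes were drawn from those with a mean of at least 2 CPM. Of their changes, 83% of 2-fold and 99% of 4-fold ones were called, all 182 with the right sign, beside 13 false calls. These rates do not cover lower genes. Far fewer genes were changed than the 33.0% called in the data, so the rates may differ there. Without molecular identifiers, intervals and floors cover counting error only.

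The members and 42 gene lists were chosen with earlier results of these data known. Of 1073 list entries, 1055 matched a gene and 1016 were tested. Genes named are METTL3, METTL14, WTAP, HRAS, CDKN1A, CDKN2A and LMNB1, the 15 largest rises and falls of genes with a symbol, a mean of at least 2 CPM and separate groups, the 4 largest called changes per list and direction, and members that did not pass. ATF4 and CD68 were added after their values were seen. Samples with the same replicate number did not deviate together (r = -0.0613 for wild type knock-in and knockout, over genes, -0.212 to 0.166 for all pairs of groups), so the numbers were not taken as pairs. Promoters are RefSeq windows on GRCh38.p14, of 27305 genes. Pattern shares cover all tested members of a list, called or not, so they describe the lists and not the changes seen here. Gene types and spans were taken from GENCODE release 29. DESeq2 1.42.0, other scalings, no filter, a replicate block, the 4 samples alone and each sample left out were tried. Some genes and 1 list are not reported here.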

Additional observations from a re-analysis of the deposited data

How the results depend on the processing

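The wild type knock-in against METTL3 knockout gave 2953 genes higher and 2629 lower, and kept within 1.5 times of these counts under METTL3 kept in the totals (3106 and 2478), upper-quartile scaling (3116 and 2478), RLE scaling (3020 and 2576), DESeq2 (2253 and 2098), no filter (2893 and 3316) and the 4 samples alone (3753 and 3434). Leaving out 1 sample gave 1701 to 2008 higher and 1534 to 2181 lower; the lone sample is then assumed to vary like the other groups. No scaling moved the median of all genes by more than 0.022 on the log2 scale. With the replicate number as a block the counts were 2878 and 2585, and since the numbers do not pair the samples this is no test of pairing. METTL3 knockout against senescent control (1217 and 1407) gave 2526 and 3094 with only its 4 samples, and 516 to 625 and 639 to 752 with 1 sample left out. Wild type knock-in against senescent control (3395 and 3326) gave 2208 to 2558 and 2099 to 2808. Wild type against mutant knock-in (1008 and 942) gave 1753 higher with no filter, 519 lower under DESeq2, 2364 and 1745 with only its 4 samples, and 30 to 546 and 90 to 472 with 1 sample left out, so levels of the mutant are given above without calls. The cause of these moves was not tested. Small differences changed sign: METTL14 was at -0.0061 with no filter and between -0.026 and 0.065 with 1 sample left out, and CDKN2A between -0.033 and 0.177, in both genes lowest without wild type knock-in replicate 2. Of 249 genes under the naming rule, 184 kept direction and call in all alternatives. The list medians of metalloproteinases, ERK feedback, mitochondrial synthetases, eicosanoids and ribosome biogenesis lie near 0 and changed sign under some alternatives. Where a list had few calls, its count also moved by over 1.5 times with only the 4 samples in the fit or with no filter, and up to 8 readers and erasers of m6A rose and up to 19 genes of cholesterol and fatty acid synthesis, 13 of the respiratory chain, 12 of splicing and 9 of the endoplasmic reticulum fell under an alternative.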
